A study of Homo sapiens with 15 samples.

Results

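Upstream of the transcriptional co-activators YAP and TAZ, the Hippo pathway relies on scaffold proteins at cell junctions. Here, the RNA of 10 such genes was examined in MDA-MB-231 cells depleted of YAP, TAZ or both. They are the angiomotins AMOT, AMOTL1 and AMOTL2, the Ajuba-type LIM proteins AJUBA, LIMD1 and WTIP, the FERM-domain proteins FRMD6 and PTPN14, and the KIBRA-family proteins WWC1 and WWC2. The genes were chosen by symbol from a written list, with no measured value in the rule. All 10 were found among the 18858 genes of the count table, and all were tested.

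MDA-MB-231 is an established human breast cancer cell line recorded as wild type. The 5 groups of 3 libraries each were untransfected cells (Control), cells given a non-targeting siRNA pool (siControl), and cells given siRNAs against YAP1 (siYAP), against the TAZ gene WWTR1 (siTAZ), or against both genes (siYAP+TAZ). After 48 h of knockdown the cells were moved to gelatin-coated plates, and RNA was taken 5 to 6 h later. Cells of the siYAP+TAZ group received both pools, so that more siRNA in total and loss of both proteins cannot be told apart. Libraries are named by the numbers 16 to 30 in their titles. The study describes 3 independent sets of experiments but not which libraries form a set, so the libraries were not paired, and runs of consecutive numbers (16 to 20, 21 to 25 and 26 to 30) were used as a block only as an alternative.

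In the Hippo pathway, MST and LATS kinases phosphorylate YAP and TAZ, which are then kept in the cytoplasm or degraded. The scaffolds act around this core. KIBRA and FRMD6 promote kinase activity at the membrane, angiomotins and PTPN14 bind YAP directly and hold it outside the nucleus, and the Ajuba-type LIM proteins bind LATS and restrain it. YAP and TAZ do not bind DNA themselves but act through TEAD transcription factors, and several of these scaffold genes, AMOTL2 and AJUBA among them, are known to be TEAD targets, so that the pathway can feed back on its own regulators.

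The siRNAs are shown because every comparison rests on them. Each is the sense strand of 19 bases, the capitals mark the bases that pair with the seed of the guide strand (guide bases 2 to 8), and each matched coding sequence of its target on GRCh38.
siYAP oligonucleotide 1, YAP1 exon 8, chr11:102227471-102227489, plus strand: gcaccuaucacUCUCGAGa
siYAP oligonucleotide 2, YAP1 exon 9, chr11:102229814-102229832, plus strand: gaacauagaagGAGAGGAg
siYAP oligonucleotide 3, YAP1 exon 9, chr11:102229900-102229918, plus strand: ccaccaagcuaGAUAAAGa
siYAP oligonucleotide 4, YAP1 exon 2, chr11:102114375-102114393, plus strand: ggucagagauaCUUCUUAa
siTAZ oligonucleotide 1, WWTR1 exon 2, chr3:149657174-149657192, minus strand: aagccuagcucGUGGCGGa
siTAZ oligonucleotide 2, WWTR1 exon 7, chr3:149520895-149520913, minus strand: aggaacaaacgUUGACUUa
siTAZ oligonucleotide 3, WWTR1 exon 7, chr3:149520960-149520978, minus strand: ggacaaacaccCAUGAACa
siTAZ oligonucleotide 4, WWTR1 exon 5, chr3:149527864-149527882, minus strand: gacaugagaucCAUCACUa

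None of these, nor the 1 sequence listed for the non-targeting pool, matched a scaffold gene along its length. Any other siRNA of that pool was not analysed here. The longest stretch shared between any of the 9 siRNAs and the transcripts of any of the 10 genes was 7 to 11 bases, with a median of 8 over the pairs. The 7 bases that pair with a guide seed are short and common. At least 1 siYAP seed site and at least 1 siTAZ seed site lay in a transcript of each of the 10 genes, against 69.9% and 71.3% of the 15696 counted genes with a GENCODE transcript. The seed site of the 1 listed non-targeting siRNA was in 1 of the 10 genes, AMOTL1, and in 3.88% of the counted genes, a share for 1 sequence and not for a pool of 4. The most frequent, that of siYAP oligonucleotide 2, was in 9 of the 10 genes and 49% of the counted genes. Longer transcripts hold more such sites, and whether the guides acted through them was not tested.

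The promoter windows below are shown because 4 of the genes that were lower after co-knockdown had the letters GGAATG, a core that TEAD factors are known to bind, shortly before a transcription start. Each window holds the 250 bases before a RefSeq start (GRCh38.p14), read in the direction of transcription, and capitals mark GGAATG or its reverse complement CATTCC. For AMOTL2 and AJUBA the window of the second annotated start is printed, because the window of the other start had no match. Both of these printed windows lie inside the annotated gene, downstream of the other start. The windows were thus picked by the fold change and by the letters.
AMOTL2, chr3:134374448-134374697, minus strand: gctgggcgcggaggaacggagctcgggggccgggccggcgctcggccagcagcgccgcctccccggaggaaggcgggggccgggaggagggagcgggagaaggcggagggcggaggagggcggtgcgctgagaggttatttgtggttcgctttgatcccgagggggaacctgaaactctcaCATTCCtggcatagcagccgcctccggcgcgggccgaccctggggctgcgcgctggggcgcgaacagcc
AJUBA, chr14:22976843-22977092, minus strand: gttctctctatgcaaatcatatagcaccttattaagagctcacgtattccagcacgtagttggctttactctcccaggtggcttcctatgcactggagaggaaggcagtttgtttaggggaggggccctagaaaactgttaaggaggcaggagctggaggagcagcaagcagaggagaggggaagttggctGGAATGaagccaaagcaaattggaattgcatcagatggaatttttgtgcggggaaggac
WTIP, chr19:34481508-34481757, plus strand: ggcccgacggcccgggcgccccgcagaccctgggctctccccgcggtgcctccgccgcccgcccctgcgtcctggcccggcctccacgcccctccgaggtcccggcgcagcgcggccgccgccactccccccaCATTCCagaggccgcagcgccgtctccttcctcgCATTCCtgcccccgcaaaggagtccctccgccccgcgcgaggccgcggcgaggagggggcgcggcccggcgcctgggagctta
WWC2, chr4:183099007-183099256, plus strand: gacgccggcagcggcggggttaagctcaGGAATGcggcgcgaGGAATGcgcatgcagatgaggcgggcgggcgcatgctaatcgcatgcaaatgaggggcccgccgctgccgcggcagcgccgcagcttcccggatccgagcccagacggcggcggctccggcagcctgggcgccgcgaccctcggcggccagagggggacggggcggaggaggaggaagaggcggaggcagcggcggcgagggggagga

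The matches lay 117 and 83 bases before the start in WTIP, 222 and 208 in WWC2, 69 in AMOTL2 and 59 in AJUBA. PTPN14, which was not called in any knockdown, also had a match, at 200 bases. No match was found in the windows of AMOT and AMOTL1, nor in those of FRMD6 and WWC1, which were lower after co-knockdown. In all, 9 of the 10 genes were found in the RefSeq table, with 11 windows, of which 5 held the letters at least once. Of all 35116 windows in the table, 11.9% held them at least once and 0.94% at least 2 times. A match is a description of the sequence, and the RNA data do not show whether a factor was bound there.

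Before the scaffolds, the targeted RNAs and the libraries were checked. YAP1 was at 23.4%, 64.0% and 17.6% of the siControl mean in siYAP libraries 18, 23 and 28, and at 51.8%, 51.0% and 41.5% in siYAP+TAZ libraries 20, 25 and 30. WWTR1 was at 45.8%, 14.1% and 28.8% in siTAZ libraries 19, 24 and 29, and at 62.7%, 62.1% and 71.0% in siYAP+TAZ. By edgeR, WWTR1 passed in siTAZ (-1.74, adjusted p = 0.019), whereas YAP1 in siYAP (-1.51, adjusted p = 0.099) and, in siYAP+TAZ, YAP1 (-1.06, adjusted p = 0.072) and WWTR1 (-0.62, adjusted p = 0.20) did not. In each of these comparisons all knockdown libraries lay below all siControl libraries for the target. The study reported efficient knockdown of both at the RNA and protein level, by RT-qPCR and Western blot. It also listed YAP1 among the molecules changed in both its RNA and protein data. The targets were less depleted in the co-knockdown than in most single-knockdown libraries, and siYAP 23 kept most of its YAP1. Total counts lay between 18696737 and 30107312 per library. The 5 genes taken as markers of the line (VIM, CD44, CAV1, EGFR and AXL) had median levels of 462 to 1531 CPM (counts scaled to a common library total). In siYAP+TAZ 2 of these 5, CAV1 (-0.35, edgeR adjusted p = 0.0065) and AXL (-0.51, edgeR adjusted p = 0.0002), were lower than in siControl, and the sum of all 5 was 4088 to 4550 CPM against 4725 to 4992 CPM. Of the genes taken as low in the line, PGR and ERBB3 were at most 0.352 and 2.33 CPM and EPCAM at most 17.2 CPM, whereas KRT19 reached 226 to 492 CPM and so was not low. In siYAP+TAZ KRT19 was higher than in siControl (0.77, edgeR adjusted p = 0.00052), the only one of the 4 called, and the sum of these 4 genes was 365 to 507 CPM against 263 to 278 CPM. ESR1 and CDH1, also listed as low, had no row in the count table, in which each gene reached 5 reads in some library. Of 7 markers of other cell types, 2 were found. PTPRC, a leukocyte marker, was at most 0.216 CPM, and the sum of PTPRC and PECAM1, an endothelial adhesion gene, was 2.83 to 6.86 CPM in siYAP+TAZ against 0.454 to 0.971 CPM in siControl. PECAM1 was called higher (3.03, edgeR adjusted p = 9.1e-06) and PTPRC was not called (-0.92, edgeR adjusted p = 0.58). The part of these markers in the results below was not tested.

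The scaffold genes differed widely in level. Per kilobase of annotated exon, AMOTL2 had the highest level in siControl, 46.3 ± 0.554 CPM (SD, n = 3). AJUBA (36.0 ± 3.15) and FRMD6 (31.9 ± 3.18 CPM per kilobase) followed and did not differ beyond their spread. WWC1 (14.7 ± 0.941) lay above PTPN14 (12.6 ± 0.405) and AMOTL1 (12.3 ± 0.217 CPM per kilobase), and the last pair overlapped. WWC2 was at 8.72 ± 0.12 CPM per kilobase. WTIP (4.08 ± 1.1) and LIMD1 (3.79 ± 0.224 CPM per kilobase) overlapped again. AMOT was barely detected, with 1 to 9 reads per library in all 15 libraries, and is left out of what follows except in the counts. The lengths are those of all annotated exons together, so genes with long unused exons are understated.

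**Figure D1:**
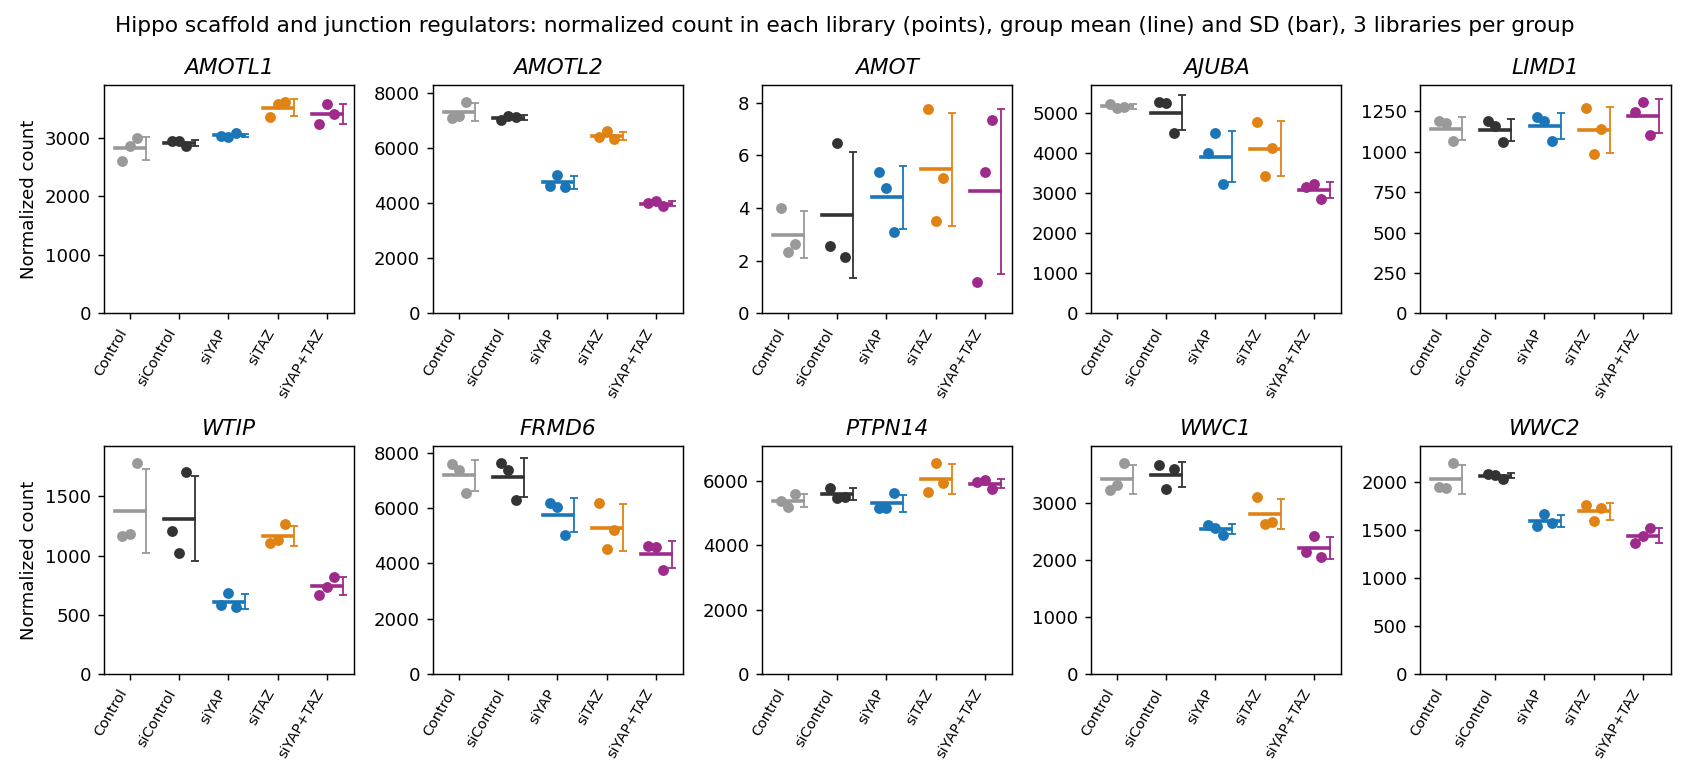
Normalized count (y axis, from 0) of each of the 10 scaffold genes in the 5 groups (x axis). Points are the 3 libraries of a group, lines their mean and bars their SD. AMOTL2 falls into separate levels, near 7098 in siControl, 4750 in siYAP and 3977 in siYAP+TAZ, AMOTL1 lies higher in siTAZ and siYAP+TAZ, and LIMD1 and PTPN14 overlap siControl in every knockdown.

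To find which scaffold genes depend on YAP and TAZ, each knockdown was compared with siControl. After co-knockdown 6 of the 10 genes fell, namely AMOTL2, AJUBA, WTIP, FRMD6, WWC1 and WWC2, to between 56.0% and 69.8% of the siControl mean, and AMOTL1 rose to 117%. These 7 calls (adjusted p at most 0.05, edgeR) stand against 18.4% of all genes called in that comparison, the 6 lower ones against 8.39% and the higher one against 9.97%. The shares of all genes here and below include genes with few reads, which are harder to call. With a stricter filter on low counts (filterByExpr), 3633 of 15307 genes and the same 7 scaffolds were called. Shares among genes of similar level were not computed. No scaffold gene was called with a change of 2-fold or more, as 3.46% of all genes were. The median log2 fold change was -0.59 over the 10 genes and -0.0048 over all genes. In siYAP 4 of 10 fell, where 0.933% of all genes were called and 0.456% were called lower. In siTAZ 1 fell and 1 rose, where 2.03% of all genes were called, 0.695% lower and 1.34% higher. The libraries of siControl and the knockdown did not overlap for 7 of the 10 genes after co-knockdown (36.4% of all genes), 7 in siYAP (19.5%) and 5 in siTAZ (20.9%). In bulk RNA, fewer cells of a kind that expresses a gene and less RNA per cell cannot be told apart.

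AMOTL2, an angiomotin that links YAP to actin and to junctions, gave the clearest difference. It lies on chromosome 3 from 134355347 to 134375479 (GRCh38, minus strand). In siControl (libraries 17, 22 and 27) it had 7003, 7167 and 7123 normalized counts, and in siYAP+TAZ (libraries 20, 25 and 30) 3991, 4059 and 3881. Between these lay siYAP with 4621, 5034 and 4595 (libraries 18, 23 and 28) and siTAZ with 6403, 6610 and 6318 (libraries 19, 24 and 29). All 9 knockdown libraries were below all siControl libraries, and siYAP and siYAP+TAZ did not overlap. AMOTL2 fell by 0.84 on the log2 scale in siYAP+TAZ (SE 0.06, edgeR adjusted p = 1.1e-07) and by 0.58 in siYAP (SE 0.06, adjusted p = 0.00042). In siTAZ the log2 fold change was -0.14 (SE 0.06, adjusted p = 0.27), which did not pass. Among the siYAP libraries AMOTL2 was highest in 23, the library that kept most YAP1, at 70.9% of the siControl mean against 65.1% and 64.7% in the others. AJUBA, WTIP and WWC2 were also highest there, whereas FRMD6 and WWC1 were highest in siYAP 18, with YAP1 at 23.4%. Any relation to the YAP1 that remained was not tested.

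AMOTL1, the other expressed angiomotin, went the opposite way. Normalized counts of AMOTL1 (chromosome 11, 94706431 to 94876748) were 2940, 2949 and 2856 in siControl, 3355, 3578 and 3616 in siTAZ, and 3239, 3577 and 3409 in siYAP+TAZ. It was also 3032, 3024 and 3079 in siYAP. Every knockdown library was above every siControl library, although the siYAP libraries only slightly. AMOTL1 rose by a log2 fold change of 0.27 in siTAZ (SE 0.07, edgeR adjusted p = 0.042) and 0.23 in siYAP+TAZ (SE 0.07, adjusted p = 0.023), and was at 0.06 in siYAP (SE 0.07, adjusted p = 0.80). The calls of these small differences depended on single libraries, more than their sizes did. The siYAP+TAZ call was lost without siControl 22 (log2 fold change 0.23, adjusted p = 0.058), siControl 27 (0.21, adjusted p = 0.073) or siYAP+TAZ 25 (0.19, adjusted p = 0.088). The siTAZ call was lost without any of siControl 17, 22 and 27 and siTAZ 24 and 29, with log2 fold changes of 0.25 to 0.28 and adjusted p between 0.10 and 0.17, and with only the groups compared (0.27, adjusted p = 0.097). A gene on the opposite strand covers 4.95% of the exonic bases of AMOTL1, and the sources used here do not state whether reads were counted by strand.

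**Figure D2:**
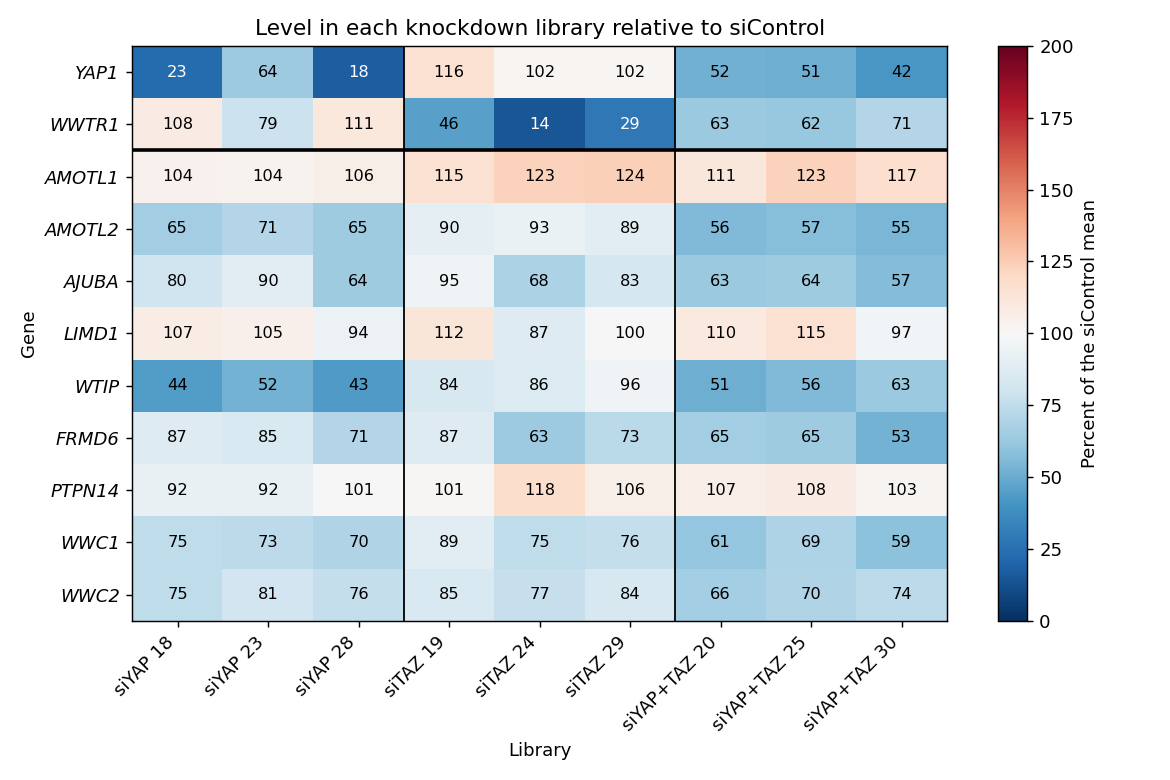
Level of YAP1, WWTR1 and 9 scaffold genes (rows) in each of the 9 knockdown libraries (columns), as a percent of the siControl mean of the gene (colour and number). AMOTL2 and WTIP are low in the siYAP and siYAP+TAZ columns (AMOTL2 at most 70.9%) and nearer to 100% in siTAZ, and in siTAZ 24, where WWTR1 is at 14.1%, AJUBA, LIMD1, FRMD6, WWC1 and WWC2 have their lowest siTAZ value and AMOTL2 and PTPN14 their highest.

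AJUBA, which binds LATS and actin at adherens junctions, fell in the co-knockdown. AJUBA (chromosome 14, 22971177 to 22982551, minus strand) had 5277, 5238 and 4499 normalized counts in siControl and 3153, 3225 and 2848 in siYAP+TAZ. The groups did not overlap, and AJUBA fell by 0.70 on the log2 scale (SE 0.12, edgeR adjusted p = 0.0005). The single knockdowns lay between, with 3995, 4490 and 3226 in siYAP and 4777, 3421 and 4139 in siTAZ. All siYAP libraries lay below the lowest siControl library, siYAP 23 only just, and the siTAZ libraries overlapped the siControl range, and neither knockdown passed (siYAP -0.36, SE 0.12, adjusted p = 0.18, and siTAZ -0.28, SE 0.12, adjusted p = 0.24).

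WTIP, a relative of AJUBA found at junctions, had the largest fold change of the 10 genes in siYAP. WTIP (chromosome 19, 34481758 to 34512304) had 1207, 1021 and 1708 normalized counts in siControl, 581, 688 and 568 in siYAP, 1102, 1131 and 1264 in siTAZ, and 667, 735 and 821 in siYAP+TAZ. All siYAP and siYAP+TAZ libraries were below all siControl and siTAZ libraries. WTIP fell by 1.10 in siYAP (SE 0.19, edgeR adjusted p = 0.016) and by 0.82 in siYAP+TAZ (SE 0.19, adjusted p = 0.0083) on the log2 scale. In siYAP it was the only scaffold gene called and lower by at least 2-fold, as were 0.0371% of all genes. In siTAZ the log2 fold change was -0.17 (SE 0.19, adjusted p = 0.73). The control groups were themselves uneven, since Control 26 (1783) and siControl 27 (1708) were well above the other control libraries (1021 to 1207). Without siControl 27 the log2 fold change was -0.86 in siYAP (adjusted p = 0.034), below 2-fold, -0.59 in siYAP+TAZ (adjusted p = 0.024) and 0.06 in siTAZ (adjusted p = 0.89). The siYAP call was lost without siControl 17 (-1.14, adjusted p = 0.056), siYAP 18 (-1.06, adjusted p = 0.086) or siYAP 28 (-1.05, adjusted p = 0.10), and with only the groups compared in the fit (-1.08, adjusted p = 0.055). Within the runs of consecutive library numbers the siYAP difference was -1.05, -0.57 and -1.59, and that of siYAP+TAZ was -0.85, -0.47 and -1.05.

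LIMD1, the third LIM protein of this kind, was steady. LIMD1 (chromosome 3, 45555394 to 45686341) stayed between 989 and 1308 normalized counts over all 15 libraries, and the groups overlapped in all 3 comparisons. The log2 fold changes were 0.03 (95% interval -0.17 to 0.23) in siYAP, -0.0027 (-0.20 to 0.20) in siTAZ and 0.10 (-0.095 to 0.30) in siYAP+TAZ, and none passed (edgeR adjusted p between 0.51 and 0.99). Changes as large as those of AJUBA or WTIP in siYAP+TAZ thus lay outside the LIMD1 interval. An antisense gene, LIMD1-AS1, covers 24.9% of its exonic bases, but the row of LIMD1-AS1 held at most 11 reads in any library.

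FRMD6, a FERM-domain protein that promotes kinase activity at the membrane, had lower counts in every knockdown library than in any siControl library. FRMD6 (chromosome 14, 51489100 to 51730727) had 7635, 7382 and 6302 normalized counts in siControl and 4611, 4603 and 3749 in siYAP+TAZ. The counts were 6186, 6027 and 5028 in siYAP and 6174, 4512 and 5187 in siTAZ. The highest knockdown library, siYAP 18, was just under the lowest siControl library. FRMD6 fell by 0.72 on the log2 scale in siYAP+TAZ (SE 0.12, edgeR adjusted p = 0.00042), whereas the values in siYAP (-0.31, SE 0.12, adjusted p = 0.28) and siTAZ (-0.43, SE 0.12, adjusted p = 0.069) did not pass. With the runs of consecutive library numbers as a block both passed (siYAP -0.31, adjusted p = 0.0091, and siTAZ -0.42, adjusted p = 0.00033), and siTAZ also with DESeq2 (adjusted p = 0.029) and against Control (adjusted p = 0.049). Libraries 27, 28 and 30 were the lowest of siControl, siYAP and siYAP+TAZ, and the differences within the runs were steadier than the counts, -0.30, -0.29 and -0.33 in siYAP and -0.73, -0.68 and -0.75 in siYAP+TAZ. In siTAZ they were -0.31, -0.71 and -0.28, and without siTAZ 19 the siTAZ value passed (-0.55, adjusted p = 0.012).

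PTPN14, a FERM-domain phosphatase that binds YAP and is listed among common YAP/TAZ target genes, did not follow AMOTL2. PTPN14 (chromosome 1, 214348700 to 214552449, minus strand) had 5784, 5452 and 5498 normalized counts in siControl and 5953, 6021 and 5736 in siYAP+TAZ. These ranges overlapped. The log2 fold changes were -0.07 (95% interval -0.22 to 0.07) in siYAP, 0.12 (-0.028 to 0.26) in siTAZ and 0.08 (-0.062 to 0.23) in siYAP+TAZ, and none passed (edgeR adjusted p between 0.44 and 0.76). The interval of siYAP+TAZ does not reach a decrease of the size seen for any of the 6 lower genes. The pseudogene KRT18P12 covers 6.47% of the exonic bases of PTPN14 on the opposite strand.

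WWC1, known as KIBRA, fell with both siYAP and the co-knockdown. WWC1 (chromosome 5, 168291645 to 168472303) had 3655, 3236 and 3585 normalized counts in siControl, 2602, 2565 and 2436 in siYAP, 3099, 2618 and 2668 in siTAZ, and 2145, 2417 and 2053 in siYAP+TAZ. All knockdown libraries were below all siControl libraries. The log2 fold changes were -0.66 in siYAP+TAZ (SE 0.08, edgeR adjusted p = 3e-05), -0.46 in siYAP (SE 0.08, adjusted p = 0.012) and -0.32 in siTAZ (SE 0.08, adjusted p = 0.054). The siYAP call of WWC1 was lost without siControl 17 (-0.42, adjusted p = 0.073), siControl 27 (-0.44, adjusted p = 0.053) or siYAP 28 (-0.43, adjusted p = 0.073). The siTAZ value passed without siTAZ 19 (-0.40, adjusted p = 0.014), and at -0.32 or -0.31 with DESeq2 (adjusted p = 0.020), the run block (adjusted p = 0.0055) and both stricter filters on low counts (adjusted p = 0.049 and 0.0498).

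WWC2, its close relative, was lower in all 3 knockdowns. WWC2 (chromosome 4, 183099257 to 183320777) had 2083, 2073 and 2030 normalized counts in siControl, 1543, 1666 and 1572 in siYAP, 1756, 1591 and 1730 in siTAZ, and 1360, 1439 and 1517 in siYAP+TAZ. The siControl libraries were tight and lay above all 9 knockdown libraries. WWC2 fell by 0.52 on the log2 scale in siYAP+TAZ (SE 0.07, edgeR adjusted p = 6.5e-05), by 0.37 in siYAP (SE 0.07, adjusted p = 0.015) and by 0.28 in siTAZ (SE 0.07, adjusted p = 0.046). The siYAP call was lost without siControl 17 (-0.35, adjusted p = 0.077), siControl 22 (-0.37, adjusted p = 0.066), siYAP 18 (-0.35, adjusted p = 0.086) or siYAP 28 (-0.36, adjusted p = 0.075). The siTAZ call was lost without any of siControl 17, 22 and 27 and siTAZ 24 and 29, with log2 fold changes of -0.30 to -0.24 and adjusted p between 0.075 and 0.22, and also with Control in place of siControl (-0.26, adjusted p = 0.053) and with only the groups compared (-0.29, adjusted p = 0.097). The gene CLDN22 covers 21.8% of the exonic bases of WWC2 on the opposite strand, and its reads could not be told apart if strand was not used.

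**Figure D3:**
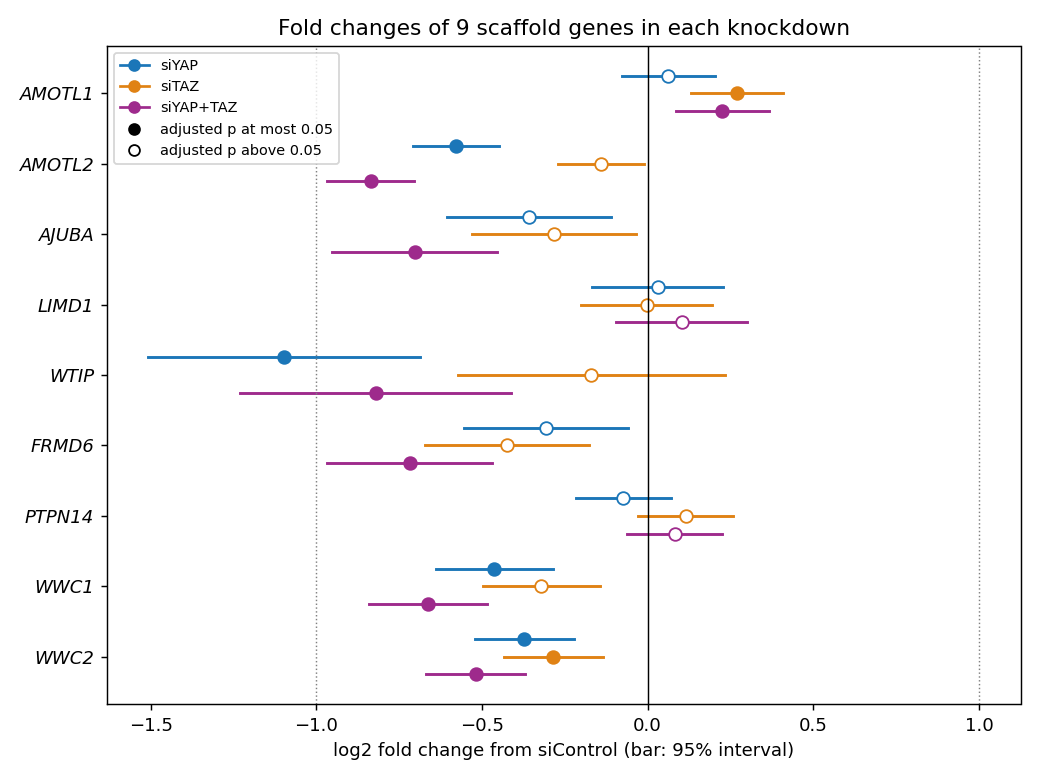
Log2 fold change from siControl (x axis) of 9 scaffold genes (rows) in siYAP, siTAZ and siYAP+TAZ. Points are edgeR estimates, filled where the adjusted p is at most 0.05, and bars are 95% intervals. The intervals of AMOTL2, AJUBA, WTIP, FRMD6, WWC1 and WWC2 in siYAP+TAZ all lie below 0 and those of LIMD1 and PTPN14 cross it. The dotted lines mark 2-fold.

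The transfection itself was examined by comparing siControl with Control. No scaffold gene passed at an adjusted p of 0.05 (edgeR), none at an unadjusted p under 0.05, and the control groups overlapped for all 10, whereas 5.83% of all genes did not overlap. In that comparison 0% of all genes were called by edgeR and none by DESeq2 or limma-voom, and 2.11% had an unadjusted p under 0.05. The log2 differences between siControl and Control ranged from -0.07 for WTIP to 0.05 for PTPN14 among the 9 genes with more than a few reads.

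Whether YAP and TAZ depletion differed in their effect was tested directly. Between siTAZ and siYAP, AMOTL2 was higher in siTAZ by 0.44 on the log2 scale (SE 0.06, edgeR adjusted p = 0.011), and WTIP by 0.93 (SE 0.19, adjusted p = 0.049), against 0.642% of all genes called and 0.472% called higher. For both genes every siTAZ library was above every siYAP library, which was so for 9.38% of all genes, and siTAZ and siYAP did not overlap for 5 of the 10 scaffolds and 17.6% of all genes. The AMOTL2 call was lost without siYAP 18 (0.42, adjusted p = 0.12) or siYAP 28 (0.42, adjusted p = 0.081), and with only the groups compared in the fit (0.44, adjusted p = 0.13). That of WTIP was lost without siYAP 18 (0.89, adjusted p = 0.26), siYAP 28 (0.88, adjusted p = 0.19), siTAZ 24 (0.93, adjusted p = 0.23) or siTAZ 29 (0.87, adjusted p = 0.16), and narrowly without siYAP 23 (adjusted p = 0.058). AMOTL1, called in siTAZ and not in siYAP, differed between them by 0.21 (SE 0.07, adjusted p = 0.16), which did not pass, although it did with the run block (0.21, adjusted p = 0.027). For FRMD6, AJUBA, WWC1 and WWC2 the difference between siTAZ and siYAP did not pass, with values from -0.12 for FRMD6 to 0.14 for WWC1 (adjusted p between 0.49 and 0.84).

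Co-knockdown was compared with each single knockdown, without the siControl libraries in the contrast. The targets were depleted unequally, so these contrasts do not compare equal losses. YAP1 was at 41.5% to 51.8% of the siControl mean in siYAP+TAZ and 17.6% to 64.0% in siYAP. WWTR1 was at 62.1% to 71.0% in siYAP+TAZ and 14.1% to 45.8% in siTAZ. The part of this in the differences was not tested. Against siYAP, where 5.13% of all genes were called and 1.7% were called lower, only AMOTL2 passed among the scaffolds and was lower (-0.26, SE 0.06, edgeR adjusted p = 0.021). This call was lost without siYAP 18 or 23 or siYAP+TAZ 20 or 30, with log2 fold changes of -0.28 to -0.22 and adjusted p between 0.054 and 0.077, and with only the groups compared in the fit (-0.26, adjusted p = 0.055). FRMD6 just missed the threshold (-0.41, SE 0.12, adjusted p = 0.052) and passed with DESeq2 (adjusted p = 0.024), both stricter filters, only the groups compared (adjusted p = 0.046 in all 3) and the run block (adjusted p = 0.00025). FRMD6 (-0.50, adjusted p = 0.029) and AJUBA (-0.46, adjusted p = 0.026) also passed without siYAP 28. WTIP pointed the other way without passing (0.28, SE 0.19, adjusted p = 0.49), its counts being 667 to 821 after co-knockdown and 568 to 688 in siYAP. The siYAP+TAZ and siYAP libraries did not overlap for 7 of the 10 genes, against 24.7% of all genes.

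Against siTAZ, where 5.44% of all genes were called and 2.38% were called lower, AMOTL2 (-0.70, SE 0.06, edgeR adjusted p = 5.1e-06), WWC1 (-0.34, SE 0.08, adjusted p = 0.023) and AJUBA (-0.42, SE 0.12, adjusted p = 0.047) were lower after co-knockdown. WTIP (-0.65, SE 0.19, adjusted p = 0.066) and WWC2 (-0.23, SE 0.07, adjusted p = 0.065) missed the threshold narrowly. WTIP passed in 7 alternatives (DESeq2, limma-voom, library size alone, filterByExpr, no robust estimation, only the groups compared and the run block), with adjusted p between 0.0072 and 0.049. WWC2 passed with DESeq2, both stricter filters and the run block (adjusted p between 0.014 and 0.046), and FRMD6 with the run block only (-0.29, adjusted p = 0.0062). The siYAP+TAZ and siTAZ libraries did not overlap for 5 of the 10 genes, against 23.4% of all genes. The AMOTL2 call held without each library in turn. The WWC1 call was lost without siTAZ 19 (-0.26, adjusted p = 0.096), siYAP+TAZ 20 (-0.32, adjusted p = 0.094) or siYAP+TAZ 30 (-0.28, adjusted p = 0.087) and with only the groups compared (-0.34, adjusted p = 0.066). That of AJUBA was lost without siTAZ 19 or 29 or any siYAP+TAZ library, with log2 fold changes of -0.45 to -0.30 and adjusted p between 0.098 and 0.16, and in 4 other fits (limma-voom, library size alone, no robust estimation, only the groups compared, adjusted p between 0.051 and 0.086).

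The interaction, which asks whether the co-knockdown differs from both single effects added on the log2 scale, was called for none of the 10 genes by edgeR, and none had an unadjusted p under 0.05. It was called for 0.0106% of all genes, and 5.85% of them had an unadjusted p under 0.05. DESeq2 and limma-voom called none of the 10 either. For AMOTL2 the interaction was -0.12 (95% interval -0.30 to 0.07), for FRMD6 0.01 (-0.34 to 0.36), and for WTIP 0.45 (-0.13 to 1.02). YAP1 and WWTR1 were depleted unequally in the single and co-knockdown groups. The part of this in the interaction was not tested.

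The other genes of the pathway were counted in 6 written lists. After co-knockdown, with 18.4% of all genes called, the list of other YAP/TAZ targets had 13 of 19 called, 12 lower and 1 higher, with a median log2 fold change of -0.61. ANKRD1 (-1.36, SE 0.36, edgeR adjusted p = 0.023), the matricellular gene CCN1 (-1.17, SE 0.12, adjusted p = 8.4e-06) and the tissue factor gene F3 (-1.02, SE 0.16, adjusted p = 0.00047) fell by more than 2-fold, which no scaffold gene did in that comparison. CCDC80 (-0.86), FJX1 (-0.66) and GADD45A (-0.59) also fell, with adjusted p of at most 0.00013. The only target called higher was NT5E (0.27, adjusted p = 0.0097), named here after its value was seen. The list was drawn from a signature that also includes AMOTL2, PTPN14 and LATS2, which were taken out.

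Of the 17 other scaffolds and adaptors found of 18 listed, 1 passed after co-knockdown (5.88%, against 18.4% of all genes). NF2, the FERM protein that recruits LATS, fell by 0.73 (SE 0.13, edgeR adjusted p = 0.00074), and the median of the list was -0.04. RASSF1 was at -0.36 (adjusted p = 0.063), TAOK3 at -0.14 (adjusted p = 0.24) and CD44 at 0.14 (adjusted p = 0.35). Of the 13 kinases, 3 passed (23.1%), in different directions. LATS2, which phosphorylates YAP and TAZ, fell by 0.50 (SE 0.09, adjusted p = 0.0006), whereas MAP4K4 (0.74, SE 0.17, adjusted p = 0.0097) and its relative TNIK (1.23, SE 0.11, adjusted p = 9.5e-07) rose, and STK3 did not pass (-0.29, adjusted p = 0.057). LATS2 was at -0.48 in siYAP (adjusted p = 0.012) and -0.02 in siTAZ (adjusted p = 0.95), beside the -0.58 and -0.14 of AMOTL2. LATS2 differed between siTAZ and siYAP by 0.46 (SE 0.09, adjusted p = 0.025).

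Among 8 genes that act on angiomotin stability, 2 passed after co-knockdown and were lower (25%, against 18.4% of all genes called in either direction). NEDD4L, a ubiquitin ligase of the NEDD4 family, fell by 0.78 (SE 0.09, edgeR adjusted p = 1.2e-05) and NEDD4 by 0.28 (SE 0.09, adjusted p = 0.046), while TNKS2 (0.12, adjusted p = 0.28) and RNF146 (0.13, adjusted p = 0.41) did not pass. NEDD4L also fell in siYAP (-0.47, adjusted p = 0.015) and siTAZ (-0.65, adjusted p = 0.0024). Of 5 LIM relatives, LIMA1 (-0.61, SE 0.07, adjusted p = 1.4e-05) and TRIP6 (-0.46, SE 0.08, adjusted p = 0.00085) fell, and LPP (0.11) and FBLIM1 (0.23) did not pass. Of 25 junction and polarity genes found of 28 listed, 6 passed (24%), near the 18.4% of all genes. The catenin genes CTNNB1 (0.44, adjusted p = 0.0013) and CTNNA1 (0.29, adjusted p = 0.017), the tight junction gene F11R (0.78, adjusted p = 0.0035) and DLG5 (0.34, adjusted p = 0.021) rose. CLDN1 (-0.87, adjusted p = 0.029) and DLG1 (-0.24, adjusted p = 0.026), named after their values were seen, fell. The medians were 0.10 for the angiomotin stability list, 0.04 for the LIM relatives, 0.15 for the kinases and 0.08 for the junction list.

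**Figure D4:**
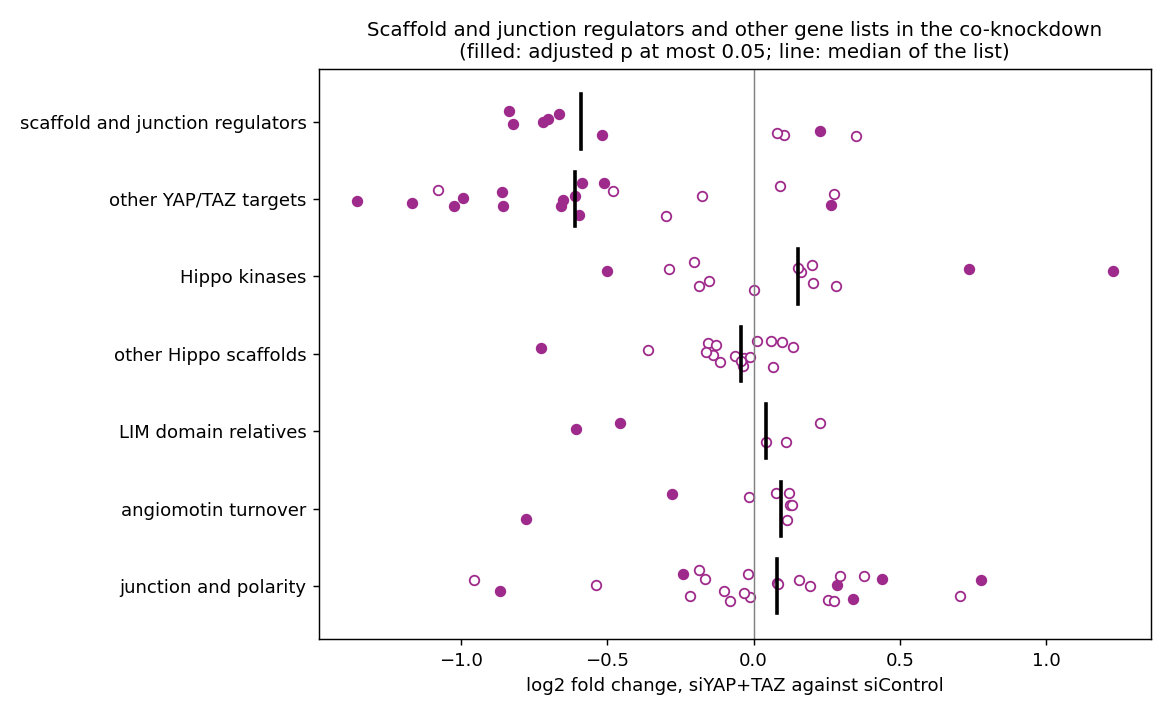
Log2 fold change in siYAP+TAZ against siControl (x axis) of every tested gene in the scaffold set and the 6 other lists (rows, with points spread vertically for legibility). Filled points have an adjusted p of at most 0.05 (edgeR) and black lines are medians. The medians of the scaffold set (-0.59) and of the other YAP/TAZ targets (-0.61) lie apart from those of the other lists, which are between -0.04 and 0.15. The open point at 0.35 in the scaffold row is AMOT, which had 1 to 9 reads per library.

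For each scaffold gene called in a knockdown, the genes with the most similar pattern were sought over the 15 libraries, among the 13201 genes that averaged 20 normalized counts or more. The measure was Pearson's r of log2 CPM, given as a description, since libraries of a group share their treatment. FRMD6 had the closest neighbours, PDE1C (r = 0.984), P3H2 (0.982) and PAWR (0.981). WWC1 was most like LARP4B (0.976), XPO6 (0.973) and CLTB (0.970), and WWC2 most like SBDSP1 (0.972), OGFRL1 (0.971) and CYTH3 (0.969). AMOTL2 was nearest to NUP153 (0.971), YRDC (0.964) and AP1M2 (0.959), and AJUBA to ZNF330 (0.965), PKP2 (0.957) and ESRP2 (0.954). AMOTL1 paired with TNIP1 (0.946), HIVEP3 (0.941) and CD82 (0.936), and WTIP with TENT5B (0.946), PKP4 (0.945) and TINAGL1 (0.939). No gene was named as a neighbour of more than 1 scaffold gene.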

How the data were processed

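RNA sequencing of MDA-MB-231 cells gave 15 libraries, 3 in each of 5 groups taken from the sample titles. The authors purified polyadenylated RNA, sequenced single reads, trimmed them with cutadapt, and aligned and counted them with STAR 2.4.2a on GRCh38. The deposited values used here are raw read counts per gene, with no normalization. The table also holds the authors' normalized and rlog values and their own fold changes and p-values for each pair of groups, none of which were used. Total counts lay between 18696737 and 30107312 per library (median 22902846), so genes with few reads carry large counting errors.

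Counts were normalized by TMM and tested in edgeR 4.0.16 (R 4.3.3) with the quasi-likelihood method, robust, in one fit over all 15 libraries with one coefficient per group. The Benjamini-Hochberg adjustment ran across all 18858 genes, each of which reached 5 reads somewhere, the limit in the methods of the study. A call needed an adjusted p of 0.05 or less, and a 2-fold call also an absolute log2 fold change of 1 or more. Normalized counts are counts over the TMM-scaled library size relative to the mean library. Tests were run first on simulated counts. The alternatives were DESeq2 1.42.0, limma-voom (limma 3.58.1), other scalings and filters, a block for each run of consecutive libraries, Control as the reference, and leaving out each library. Gene positions and overlaps come from GENCODE release 44, which is later than the release the authors used, and promoters from RefSeq. The siRNA sequences come from the supplement of the study. Named genes are the 10 scaffolds, the siRNA targets, up to 4 genes with the smallest adjusted p per list in siYAP+TAZ with all past both thresholds, and the 3 genes nearest in pattern to each called scaffold. The genes and lists were chosen with earlier results of these data known.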

Additional observations from a re-analysis of the deposited data

Results flagged for a closer look

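For AMOTL2 and WTIP the effect of depleting TAZ differed from that of depleting YAP, by a test of the difference between the 2 knockdowns. The log2 difference of siTAZ over siYAP was 0.44 for AMOTL2 (edgeR adjusted p = 0.011) and 0.93 for WTIP (edgeR adjusted p = 0.049). All 3 siTAZ libraries were above all 3 siYAP libraries for both genes, which was so for 9.38% of all genes. The WTIP call was lost without any of 5 of the 6 libraries compared (adjusted p between 0.058 and 0.26), and the AMOTL2 call without siYAP 18 or 28 and with only the groups compared (adjusted p between 0.081 and 0.13). Depletion was uneven within both groups, with YAP1 at 17.6% to 64.0% of the siControl mean in siYAP and WWTR1 at 14.1% to 45.8% in siTAZ, and the part of this in the difference was not tested.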

How the results depend on the processing

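Of the 10 scaffolds, edgeR called 7 in siYAP+TAZ against siControl, and the alternatives called 6 or 7. In siYAP it called 4, and 1 to 4 when a library was left out (1 without siControl 17 or siYAP 28), against 5 with the replicate block and 3 with only the groups compared. In siTAZ it called 2, against 4 with DESeq2 or the replicate block, 0 with only the groups compared, and 0 to 4 when a library was left out. Of siYAP+TAZ against siYAP it called 1, against 2 with DESeq2, filterByExpr, a minimum of 10 reads in 3 libraries or the block, and 0 to 3 when a library was left out. Of siYAP+TAZ against siTAZ it called 3, against 5 with DESeq2 or filterByExpr, 6 with the block, and 1 to 3 when a library was left out. Of siTAZ against siYAP it called 2, against 3 with the block, 1 with only the groups compared and 0 to 2 when a library was left out. The cause of these shifts was not tested. For siControl against Control and for the interaction it called 0 under every alternative. Over all genes DESeq2 called 400 in siYAP, 802 in siTAZ, 354 between siTAZ and siYAP and 21 for the interaction, where edgeR called 176, 383, 121 and 2. With the block edgeR called 1151, 1942, 1380 and 122 of them, and with only the groups compared 140, 147, 1 and 1. When a library was left out it called 27 to 137 genes in siYAP, 68 to 901 in siTAZ and 0 to 417 between siTAZ and siYAP. The shares of all genes printed above move with these counts. In siYAP+TAZ against siControl, siYAP and siTAZ, edgeR called 3464, 968 and 1025 genes, and 5389, 2758 and 2795 with the block.

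The replicate block takes libraries 16 to 20, 21 to 25 and 26 to 30 as 3 runs, each with 1 library of every group. The study describes 3 independent sets of experiments without saying which libraries form each, so the runs may be these sets. Deviations from the group means correlated with a median of 0.391 within runs (lowest -0.0498) and -0.315 between them (highest 0.386). The runs were kept as an alternative because the study does not name the libraries of each set. Differences shared by the libraries of a run therefore stay in the spread of the main fit. A value that did not pass there may pass with the block, as FRMD6 did in both single knockdowns.

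Signs turned for small log2 differences that were not called. LIMD1 in siTAZ went from -0.0027 to 0.011 with library size alone, 0.0028 with filterByExpr and 0.0032 with the minimum of 10 reads, and the interaction of FRMD6 from 0.013 to -0.0041 with library size alone. With a library left out, LIMD1 spanned -0.017 to 0.084 in siYAP and -0.096 to 0.085 in siTAZ, and WTIP -0.32 to 0.064 in siTAZ. For siControl against Control the spans were -0.0086 to 0.091 for AMOTL1, -0.089 to 0.026 for AJUBA, -0.058 to 0.037 for LIMD1, -0.30 to 0.16 for WTIP, -0.076 to 0.065 for FRMD6, -0.0050 to 0.098 for WWC1 and -0.0068 to 0.088 for WWC2. PTPN14 spanned -0.079 to 0.037 for siYAP+TAZ against siTAZ, and for siTAZ against siYAP AJUBA spanned -0.047 to 0.18 and LIMD1 -0.13 to 0.042. For the interaction the spans were -0.18 to 0.061 for AJUBA, -0.018 to 0.17 for LIMD1, -0.094 to 0.14 for FRMD6 and -0.0053 to 0.097 for PTPN14. At this depth AMOT, with 1 to 9 reads per library, could not be judged, whereas the other 9 genes had at least 568 normalized counts in every library.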

Other observations

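Rows named after the antisense genes of 3 scaffolds were also present. FRMD6-AS1 had 10.3 to 28.1 normalized counts per library, WWC2-AS2 had 13.6 to 31.0, and LIMD1-AS1 had at most 11 reads, and none was called by edgeR in any comparison. WWC2-AS2 was lower in all 3 siControl libraries (13.6, 15.7 and 16.1) than in all 3 Control libraries (31.0, 26.8 and 26.3), with a log2 difference of -0.89 (SE 0.28) that did not pass after adjustment, while WWC2 itself differed by 0.03. Such a gap between siControl and Control was found in 5.83% of all genes.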
